A study of Cinachyrella cavernosa with 3 samples.

Results

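A group of 174 coding sequences of a marine demosponge, all with at least 100 reads in each of 3 libraries, stayed within 2-fold of each other before a wound, during regeneration and after it. They were chosen from the tables themselves: a coding sequence (CDS) had to be listed in all 3 libraries with 100 or more reads in each, its read counts were divided by median-of-ratios size factors, and the highest of its 3 scaled counts had to be under 2 times the lowest. The tables listed 3229 CDS in all, of which 887 stood in all 3, 346 of these reached 100 reads in each, and 174 of the 346 met the limit. The rule thus used every count given below, and the values describe the members without testing them.

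The sponge was Cinachyrella cf. cavernosa. Animals were kept for acclimatization in sea water tanks and then moved in groups of 3 to smaller aquaria, where wounds that imitate fish bites, of about 10% of the body volume, were cut, per the labels' protocols. Messenger RNA of tissue was sequenced in 1 library taken before the wound, which served as the control, 1 taken during regeneration and 1 taken after it. No further treatment is named for any of the 3, and times of sampling, age and animals per library were not given in the sources used here.

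Demosponges are sessile filter feeders without organs, whose tissue is built around a system of canals and of chambers lined by choanocytes, the flagellated cells that pump water. Regeneration in sponges is known to draw on motile cells, archaeocytes among them, and on choanocytes that can change their type. Transcripts that change little over such a process are commonly of interest as reference genes, because the level of other transcripts is read against them. Which genes the 174 are could not be read from the tables, whose identifiers are only a CDS number and a Unigene number: of 10 families listed for matching (ribosomal proteins, elongation factors, actin, tubulin, histones, glycolytic enzymes, heat shock proteins, ubiquitin, mitochondrial respiratory subunits and silicatein, the enzyme of the sponge's silica skeleton), 0 matched an identifier. The labelled tissue could not be checked against marker genes for the same reason, and the bases of the CDS were not analysed here.

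The deposited read counts summed to 773142 before the wound, 1062098 during regeneration and 965464 after it. They cover 1928, 1769 and 2127 listed CDS. Reads outside the listed CDS are not in these sums, and a read counted for several CDS would enter them more than once. Library totals and shares of a library's reads below refer to these sums. Every deposited count was even, so pairs of reads were taken as the unit of counting error. The size factors were 0.983, 0.879 and 1.15. Relative to the before-wound library they scaled the during library by 0.894, where the library totals would have scaled it by 1.37. With 1 library per stage no difference between stages has a replicate check, and every interval below is a 95% interval that covers counting error only.

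The members were a large part of each library. They held 45.3% of reads before the wound (exact Clopper-Pearson interval 45.11 to 45.42) and 45.0% of reads after regeneration (44.86 to 45.14), but 30.2% in the during library (30.08 to 30.33). The 172 CDS that also had 100 reads in each library but lay 2-fold or more apart held 35.2%, 60.6% and 39.6%. In scaled counts the members summed to 356080, 365042 and 376864 in the order before, during and after, and the 172 others to 276912, 732560 and 331636. Each member lay within 2-fold in these scaled counts by the rule, so the members' sum could not move 2-fold and was nearly level. The members' share of raw reads was lowest during regeneration. Shares are set against library totals, which scaled the during library by 1.37 relative to the before library, where the size factors gave 0.894. The lower share thus reflects the gap between the scalings and is no second observation on the members. One CDS outside the group, CDS_41997_Unigene_65739, alone took 3.26%, 19.2% and 4.66% of reads, and with it left out of the totals the members held 46.8%, 37.4% and 47.2%. In bulk tissue a change in the number of cells of some type and a change in RNA per cell cannot be told apart.

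**Figure D1:**
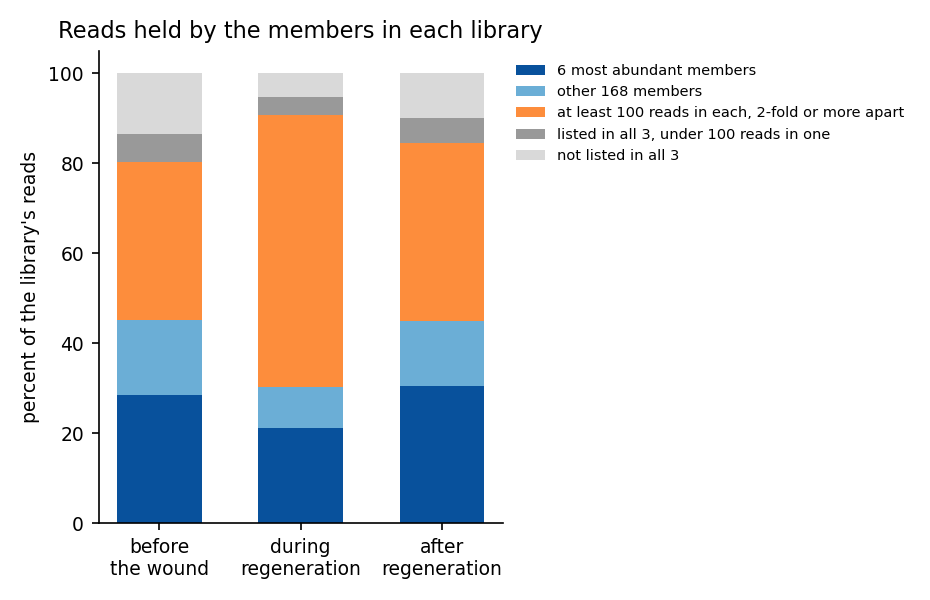
Percent of each library's reads (vertical axis) held by 5 sets of CDS in the 3 libraries (1 stacked bar each): the 6 most abundant members, the other 168 members, the CDS with at least 100 reads in each library that lay 2-fold or more apart, and the CDS with fewer reads or not listed in all 3. The 2 blue parts together are 45.3%, 30.2% and 45.0% of reads.

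Reads were unevenly spread among the members. The geometric mean of a member's 3 scaled counts ran from 117.1 to 71009 with a median of 400.9, and 69 members lay under 300. Above 1000 stood 34 members, and above 10000 only 6, the sixth at 13687 and the seventh at 6442. These 6 held 63.3%, 69.7% and 67.8% of all the members' reads before, during and after. The other 168 held 16.6%, 9.14% and 14.5% of the libraries' reads. Among the 50 CDS with the most reads in a library, 25 were members before the wound, 20 during regeneration and 24 after it, out of 48 in each that could have been.

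Of the 6, CDS_6383_Unigene_9864 (375 bases) had the most reads. It had 56768 reads before the wound, 67504 during regeneration and 93034 after it, which are 57761, 76809 and 80704 in scaled counts. The before-wound library was the low one, with a log2 ratio of 0.41 (0.388 to 0.434) during against before and 0.48 (0.461 to 0.504) after against before. CDS_45008_Unigene_70396 (327 bases) had the same order, with 31732, 31990 and 51134 reads and scaled counts of 32287, 36400 and 44357. Its log2 ratio after against before was 0.46 (0.430 to 0.487).

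CDS_56343_Unigene_88040 (318 bases) stood out in the during library, with 49852, 66882 and 58422 reads and scaled counts of 50724, 76101 and 50679. Its levels before and after differed by less than counting error, at a log2 ratio of -0.001 (-0.026 to 0.023), while during regeneration it lay 0.585 above the before-wound level on the log2 scale (0.562 to 0.609). By deposited FPKM (fragments scaled by length and library size) it was the highest of the members in each library, at 534368, 472580 and 494677. This rank is given for FPKM alone. After regeneration, FPKM kept an estimated 97.8% of its read pairs but 56.6% of those of CDS_6383_Unigene_9864, by an estimate described below.

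In 2 of the 6 the during library was the low one. CDS_11208_Unigene_17245 (327 bases) had 23854, 11150 and 26880 reads, or 24271, 12687 and 23317 in scaled counts, and so passed the 2-fold limit narrowly, with a highest over lowest of 1.91. CDS_39254_Unigene_61490 (408 bases) had 17236, 8544 and 17338 reads, or 17538, 9722 and 15040 in scaled counts, a ratio of 1.8. In both, the before and after libraries lay nearer to each other than to it. Their log2 ratios during against before were -0.936 (-0.982 to -0.890) and -0.851 (-0.904 to -0.798).

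**Figure D2:**
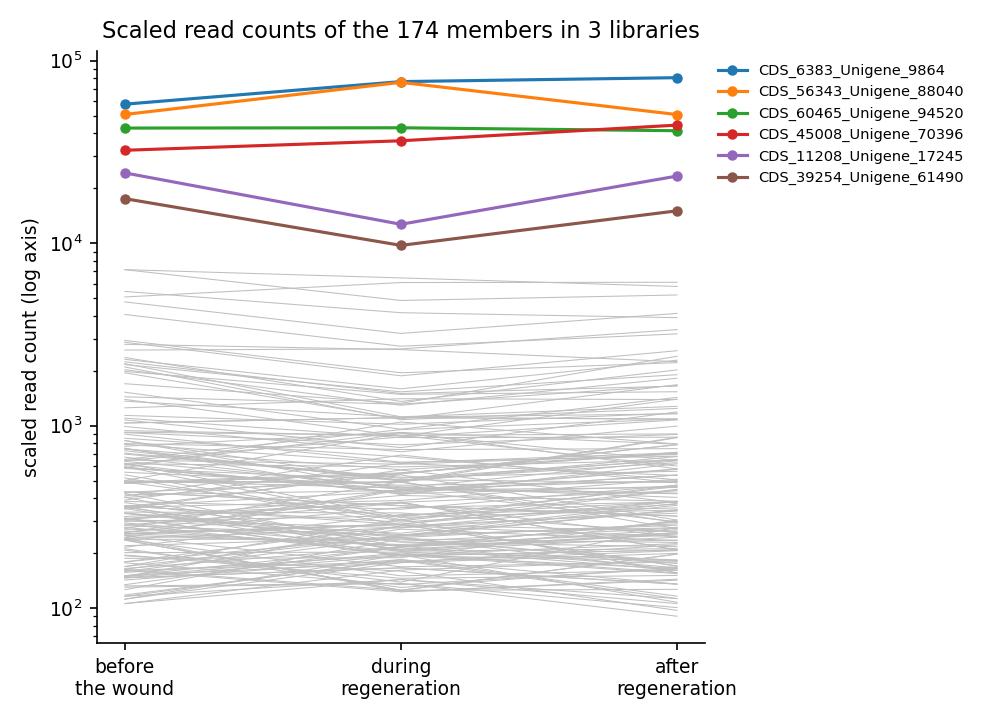
Scaled read count (vertical axis, log scale) of the 174 members in the 3 libraries, 1 line per CDS, with the 6 most abundant in colour and the others in grey. The 6 lie at or above 9722 in every library, and CDS_60465_Unigene_94520 runs nearly flat at 42729, 42887 and 41324.

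The flattest member was also among the most abundant. CDS_60465_Unigene_94520 (327 bases) had 41994 reads before the wound, 37692 during regeneration and 47638 after it, and scaled counts of 42729, 42887 and 41324. Its highest scaled count was 1.04 times the lowest. The during library matched the before library within counting error, at a log2 ratio of 0.005 (-0.023 to 0.034), and the after library was lower by a margin that its depth could resolve, at -0.048 (-0.075 to -0.021). The next were CDS_39976_Unigene_62595 (375 bases), with 904, 778 and 1038 reads and a ratio of 1.04, and CDS_64635_Unigene_100985 (330 bases), with 1016, 972 and 1252 reads and a ratio of 1.07. For neither did any of the 3 pairwise intervals exclude equal levels. The counts of the latter are shared with a second identifier, described with the identical sets.

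The flatness of these members depended on the scaling. Of all reads, CDS_60465_Unigene_94520 took 5.43%, 3.55% and 4.93%, so its highest over lowest was 1.53 with library totals. In those shares CDS_6383_Unigene_9864, CDS_45008_Unigene_70396 and CDS_56343_Unigene_88040 were lower during regeneration than before, at 6.36% against 7.34%, 3.01% against 4.10% and 6.30% against 6.45%, which reverses the direction of their scaled counts. CDS_11208_Unigene_17245 and CDS_39254_Unigene_61490 were 2.94 and 2.77 times apart in shares of reads and passed the 2-fold limit no longer.

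Over all 174 members the median ratio of highest to lowest was 1.5, with quartiles of 1.35 and 1.73. Only 6 members lay under 1.1 and 22 under 1.25, while 84 (48.3%) lay under 1.5. The background is wide: 50.3% of the 346 CDS with 100 reads in each library met the limit, and 34.5% of all 887 CDS listed in the 3 libraries lay within it without a minimum of reads. No gap separated members from the rest. From 1.8 to the limit there were 32 CDS, and from the limit to 2.2 there were 22.

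The values at the edge show how thin the line is. Just inside were CDS_13711_Unigene_21215 (414 bases), with 204, 122 and 320 reads and a ratio of 1.9997, and CDS_3360_Unigene_5172 (297 bases), with 352, 484 and 824 reads and a ratio of 1.996. Just outside were CDS_28617_Unigene_44607 (327 bases), with 578, 258 and 520 reads and a ratio of 2.003, and CDS_55861_Unigene_87274 (306 bases), with 148, 266 and 280 reads and a ratio of 2.01. Counting error alone spans the limit for all 4. For CDS_13711_Unigene_21215 the log2 ratio after against during was 1.00, with an interval from 0.566 to 1.450.

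**Figure D3:**
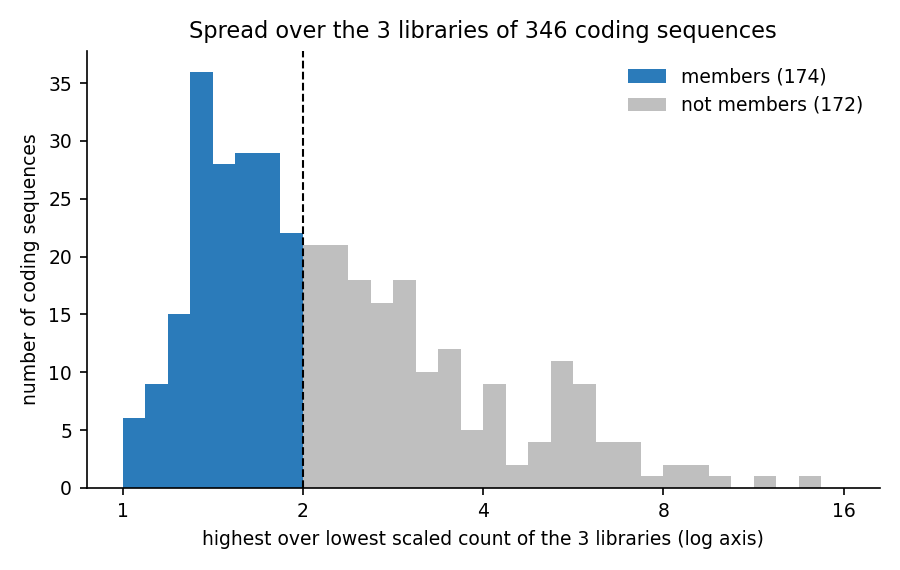
Number of CDS (vertical axis) by the ratio of highest to lowest scaled count over the 3 libraries (horizontal axis, log scale), for the 174 members in blue and the 172 other CDS with at least 100 reads in each library in grey; the dashed line is the limit of 2. The counts pass the limit without a gap, 32 from 1.8 to 2 against 22 from 2 to 2.2.

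Within 2-fold did not mean equal. For 151 of the 174 members (86.8%) the counting interval of at least 1 of the 3 pairwise ratios excluded equal levels, against 93.4% of all 346 CDS. Equal levels were excluded for 108 members (62.1%) during against before, where 79.2% of the 346 were, for 114 (65.5%) after against before, where 76.3% were, and for 94 (54.0%) after against during, where 71.7% were. All 172 other CDS had at least 1 such interval, and the 346 include the members, so the rule shapes these contrasts. The label stable means here only that a sequence met the 2-fold limit by which it was chosen. For most members, differences inside that limit exceeded counting error. How much of such differences sponges at the same stage would show was not tested.

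The 23 members with no such interval had a median of 504 reads summed over the libraries, against 1280 for the other 151, so they include sequences whose depth could resolve little. In the other direction, 112 members (64.4%) had all 3 intervals inside 2-fold, against 32.4% of the 346. The rule fixes that contrast, since no CDS outside the limit can have all its intervals inside it. The part that did was larger at greater depth: 22 of the 58 members whose lowest count was 100 to under 200 reads, 42 of 64 at 200 to under 500, 24 of 27 at 500 to under 1000 and 24 of 25 at 1000 or more. The median interval spanned a ratio by a factor of 1.35 to either side in the lowest of these classes and 1.08 in the highest.

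A larger part of the deeper CDS met the limit. It was 45.0% of 129 CDS with a lowest count of 100 to under 200 reads, 48.5% of 132 at 200 to under 500, 62.8% of 43 at 500 to under 1000 and 59.5% of 42 at 1000 or more. The median ratio of highest to lowest in these classes was 2.10, 2.05, 1.67 and 1.65. Grouping by the lowest count favours this order, because a CDS low in 1 library falls into a lower class.

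By stage, the members were spread over every order. The before-wound library was the highest for 80 members (46.0%, against 43.4% of the 346), the during library for 43 (24.7% against 34.4%) and the after library for 51 (29.3% against 22.3%). The during library was the lowest for 81 (46.6% against 45.7%), the before library for 53 (30.5% against 33.5%) and the after library for 40 (23.0% against 20.8%). The commonest order was before, after, during, seen in 62 members (35.6%) and in 35.5% of the 346. The order during, after, before was seen in 21 members (12.1%, against 21.4% of the 346), and after, during, before in 32 (18.4% against 12.1%). Another 19 were lower during regeneration and higher after it than before (10.9% against 10.1%), and 22 higher during and lower after (12.6% against 13%). The rule used these counts, the 346 include the members, and the comparisons share libraries, so no contrast among these shares was tested.

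The typical member differed little from the typical CDS in direction. The members' median log2 ratio was -0.15 for the during library against the before library, -0.11 for after against before and 0.14 for after against during, beside -0.14, -0.13 and 0.14 over the 346. In size, the median difference was 1.35-fold, 1.29-fold and 1.24-fold in the same order, beside 1.76, 1.42 and 1.43 over the 346, a contrast that the limit itself brings about. Within 1.25-fold lay 64, 74 and 90 members in these comparisons, against 19.9%, 30.6% and 30.3% of the 346. The limit of 2 was met by 58.7% of the 346 in the first comparison, 82.9% in the second and 76.6% in the third, so the comparison of the during with the before library kept out the most CDS.

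The choice of scaling decides which sequences are called stable. With TMM factors (trimmed mean of M-values, from edgeR) 176 of the 346 met the limit and 173 of them were members. With library totals, which set the median log2 ratio of all 887 CDS at -0.63 during against before, 137 met it, and 100 of these were members, which is 57.5% of the members and 73.0% of the 137. With totals 141 of the 174 members were lowest and 6 highest in the during library, against 81 and 43 with median-of-ratios factors. The before library was the one most often highest under both, for 111 and 80 members. Under totals the like counts were not made for the 346. Totals shifted the 346 much as they did the members, with median log2 ratios during against before of -0.76 and -0.77. The 141 is therefore not shown to be particular to the members. No outside measure was used to choose among the scalings.

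A second readout of the same reads, the authors' FPKM, differed from the counts for a part of the members. FPKM was divided by its own median-of-ratios factors over the 867 CDS above 0 in all 3 libraries, which is called centred below. Of the 170 members with an FPKM above 0 in every library, 138 (81.2%) also lay under 2 times by centred FPKM, against 43% of the CDS of that kind among the 346. Another 14 lay between 2 and 2.5 times, and 10 were at least 4 times apart. The median centred ratio was 1.58 for these members and 2.84 for the 167 other CDS, of which 7 lay under 2 times. Both readouts come from the same reads and the rule chose the members by their counts, so the limit shapes these contrasts.

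Whether the readouts matched went with how many read pairs FPKM kept. The share kept was estimated from FPKM per read pair, relative to CDS of like length in the same library, and it uses the FPKM that it is compared with. It was at least 90% in all 3 libraries for 99 members (56.9%), against 53.5% of the 346. Of these 99, 95 lay under 2 times by centred FPKM and the highest ratio was 2.13. Of the 71 others with FPKM above 0 in every library, 43 did. Where nearly all pairs are kept, FPKM follows the count by which the members were chosen, so the rule largely fixes the 95. The like counts were not made for the 346. Under 50% was kept in at least 1 library for 52 members (29.9%, against 33.5% of the 346) and under 10% for 19 (10.9% against 11%).

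**Figure D4:**
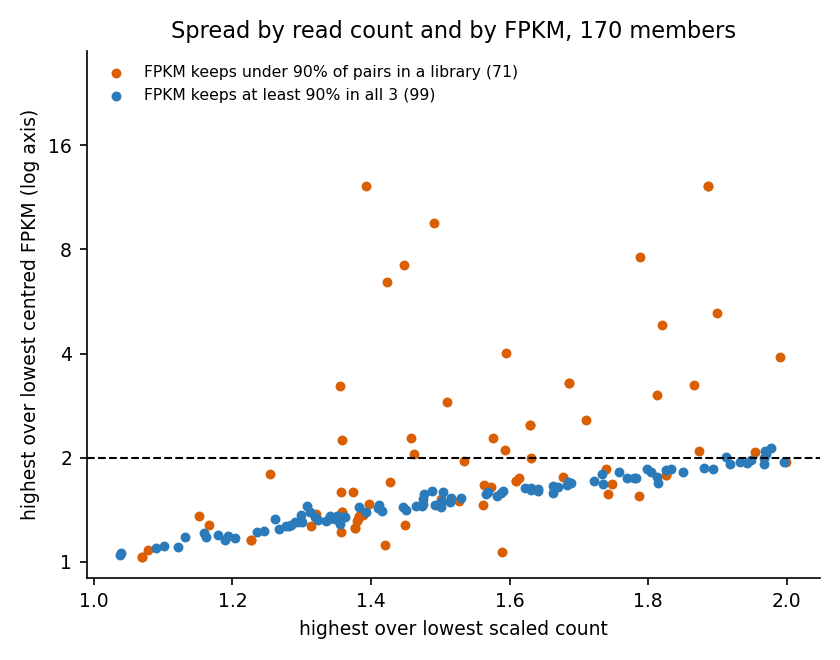
Ratio of highest to lowest centred FPKM (vertical axis, log scale) against the ratio of highest to lowest scaled count (horizontal axis) for the 170 members with FPKM above 0 in all 3 libraries, 1 point per CDS; the dashed line is 2. The 99 members for which FPKM kept at least 90% of pairs lie along 1 band up to 2.13, and the other 71 (orange) reach 12.2.

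The largest centred FPKM ratio belonged to CDS_12976_Unigene_20052 (777 bases), which shares its values with CDS_55339_Unigene_86457. It had 232 reads before the wound, 110 during regeneration and 228 after it, a ratio of 1.89 in scaled counts, and FPKM values of 96.3, 7.06 and 131, a ratio of 12.2 after centring. FPKM kept 16.7%, 3.57% and 28.4% of its pairs. For another 4 members FPKM was listed at 0 in at least 1 library although the count was above 100 (2.3% of the members, against 2.6% of the 346). The most abundant of them, CDS_253_Unigene_377 (360 bases), had 1338, 980 and 1336 reads and FPKM values of 715, 0 and 590. CDS_31902_Unigene_49732 (669 bases) had 356, 384 and 664 reads, and its FPKM was listed at 0 before and after and at 442 during regeneration. The other two were CDS_5417_Unigene_8388, listed at 0 before the wound, and CDS_25316_Unigene_39303, at 0 before and after.

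Some members share their counts with another identifier. Among the 174 were 9 pairs with the same length and the same counts in all 3 libraries, so the members hold 165 distinct count profiles. Sets of identical counts took in 10.3% of the members, against 17.3% of the 346, where the largest set had 7 CDS. Within each of the 9 pairs the FPKM values were identical too, and FPKM kept under 90% of the pairs of reads in all 9. CDS_64635_Unigene_100985 and CDS_64636_Unigene_100987, with 1016, 972 and 1252 reads each, kept 49.0%, 49.1% and 49.0%. In 3 of the 9, the CDS had Unigene numbers within 10 of each other, and CDS_18423_Unigene_28619 and CDS_18425_Unigene_28621, the shortest members at 288 bases, were among these, with 144, 146 and 156 reads each. Members of a pair are not separate measurements.

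Length was not used by the rule. The median member was 402 bases long (288 to 2229) and the median of the 172 other CDS 438 (297 to 2865). At least 600 bases were reached by 22 members (12.6%), against 22.1% of the 172. With 1 CDS per set of identical counts the medians were 402 and 417 bases, and the shares of at least 600 bases 11.5% and 21.4%. Among CDS for which FPKM kept at least 90% of pairs, the order of the medians turned, with 387 bases for 99 members and 375 for 86 others. Among the rest they were 432 bases for 75 members and 528 for 86 others. The estimated share of pairs kept thus moved with length, and its part in the difference was not tested. The estimate is itself made by length and is less sure for the longest CDS. The longest member, CDS_58923_Unigene_92063 (2229 bases), had 372, 204 and 316 reads, and FPKM kept an estimated 4.38%, 13.2% and 6.76% of its pairs. At that length the CDS it is set against are mostly shorter, so these shares are likely too low.

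A core of 76 members (43.7%) lay under 2 times in each of 5 settings, which were counts scaled by median-of-ratios factors, TMM or library totals, centred FPKM and FPKM as deposited. Size factors taken only from the CDS with 100 reads in each library, which kept 165 of the 174, were not among the 5. The 76 held 24.8% of reads before, 20.3% during and 26.2% after, with a median ratio of 1.42 in scaled counts and a median length of 390 bases. FPKM kept at least 90% of pairs in all 3 libraries for 55 of the 76, beside 56.9% of all 174 members. All 3 counting intervals lay inside 2-fold for 50 of the 76, beside 64.4% of the 174. FPKM settings were among the 5, which bears on the first of these counts. Of the 6 most abundant members, CDS_6383_Unigene_9864, CDS_56343_Unigene_88040 and CDS_60465_Unigene_94520 were in this core. CDS_45008_Unigene_70396 was not, since its deposited FPKM values of 316103, 167343 and 402416 were 2.40 times apart. All 3 of the flattest members were in it. The 5 settings rest on the same reads, so the core is no replicate check.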

How the data were processed

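The authors deposited 1 table per library with a read count, a length in bases and an FPKM value per CDS, per the file headers. Deposited read counts are whole and even, with 1 read pair taken as 2 reads; deposited FPKM values are scaled by length and library by the authors. The submitters' processing notes name FastQC, Trimmomatic and RSEM, with no version; libraries were made with a stranded mRNA kit from TRIzol-extracted RNA, per the labels' protocols. Assembler, aligner and rule of listing were not given in the sources used here, and an unlisted CDS was not taken to have 0 reads.

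Median-of-ratios factors were computed over the 887 CDS listed in all 3 libraries (Python 3.11.15, pandas 2.3.3), and TMM factors with edgeR 4.0.16 in R 4.3.3. Ratios carry exact conditional binomial 95% intervals on read pairs (scipy 1.17.1), which cover counting error only, and reads counted for several CDS make them too narrow. The share of pairs kept by FPKM is FPKM per pair relative to the 0.2 quantile of pairs per FPKM among CDS of like length. These were taken in a window of 101 CDS ranked by length. The window was cut short at the longest and shortest lengths, so the estimate is less sure there. No test was run, since each stage has 1 library. The rule was also run on simulated counts with counting error only, in which changed CDS were set well beyond the 2-fold limit. That run says nothing on CDS near the limit, on shared reads or on variation between sponges.

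The members, lists and settings were chosen with earlier results of these data known. Named CDS are the 6 most abundant, the 3 flattest, the nearest to the limit (2 on either side), the longest, the shortest and the one with the widest finite FPKM ratio, 1 per identical set; the CDS with FPKM at 0, and CDS_41997_Unigene_65739, were named after their values were seen.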

Additional observations from a re-analysis of the deposited data

How the results depend on the processing

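With 1 library per stage no replicate could be left out, and no paired analysis was possible because no stage has a second library. The number of stable CDS, 174 or 50.3% of those with enough reads, was within 1.5 times for every scaling, for both FPKM settings, for minimums of 50 and 200 reads, for 1 CDS per identical set and for the before and during libraries alone. It was 84 (24.3%) with a limit of 1.5, 267 (77.2%) with a limit of 3 and 306 (34.5%) with no minimum of reads, as these settings require. With the before and after libraries alone it was 398 (80.9%), and with the during and after libraries alone 322 (75.9%), over more CDS. The percent was 39.6% with library totals, 43.0% with centred FPKM, 36.2% with FPKM as deposited, 44.3% with at least 50 reads and 59.9% with the before and during libraries alone. A like number did not mean the same CDS. Of the 174 members, 138 (79.3%) met the limit with centred FPKM, 100 (57.5%) with library totals and 82 (47.1%) with FPKM as deposited.

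The members' share of reads, in the order before, during and after, was 45.3%, 30.2% and 45.0%. It was 27.2%, 18.6% and 28.8% with a limit of 1.5, and 64.0%, 52.2% and 69.0% with a limit of 3. Library totals gave 43.0%, 43.5% and 51.1%, so that the low share during regeneration was not seen for the CDS they select. Those CDS were chosen because their shares of reads lay within 2-fold, so their summed share could not move 2-fold either. One CDS per identical set gave 44.8%, 29.9% and 44.6%, at least 200 reads gave 43.8%, 29.3% and 43.7%, and the share of summed FPKM was 52.4%, 30.9% and 49.2%. Leaving CDS_41997_Unigene_65739 out of the totals, a choice made after seeing the data, gave 46.8%, 37.4% and 47.2%.

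The members' median log2 ratio kept its sign with TMM, library totals, both FPKM settings and 1 CDS per identical set. Library totals moved it to -0.77 for the during library against the before library, -0.20 for after against before and 0.67 for after against during, and FPKM as deposited to -0.81 and 0.74 in the first and last of these; both settings shift all CDS together. The members' median was not computed with size factors taken only from the CDS with 100 reads in each library. With the main factors, those CDS had medians of -0.137, -0.126 and 0.135 in the same order of comparisons. The members' medians were close to these, at -0.146, -0.111 and 0.136. Whether the members' signs hold with such factors was therefore not tested. Depth limits the members with 100 to under 200 reads, where a ratio is known within a factor of about 1.35.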
